A study of Nasonia vitripennis with 140 samples.

Results

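Male and female embryos of Nasonia vitripennis, a parasitoid wasp, were compared in the offspring of mothers that had been injected with double-stranded RNA (dsRNA) against doublesex (dsx). The comparison holds 10 of the 140 libraries of the series, 5 of male and 5 of female embryos, chosen by their labels for stage, sex and dsRNA. The 10 embryo libraries of GFP controls, 5 of each sex, served as a second sex comparison that shares no library with the first. All wasps were of the AsymCX strain, reared on Calliphora hosts, with no further allele or transgene named in the labels. Mothers were injected as female pupae 8 days after oviposition with 4 µg/µl dsx dsRNA or with the same amount of dsRNA against green fluorescent protein (GFP), so the embryos themselves were not injected. Injected mothers were then either mated to uninjected AsymCX males or kept virgin, and each was offered a host that was changed every 4 hours. Embryos were dissected from the hosts 24 hours later and pooled in batches of 100. In all groups RNA was thus taken from day 1 embryos. Virgin mothers gave the male batches, and mated mothers gave batches that were 90 to 95% female, so the female batches also hold some males. Sex, ploidy and the mating status of the mother change together in this design and cannot be told apart. The labels do not say that batches came from separate sets of mothers, so p-values measure only the spread between these samples.

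Sex in wasps, bees and ants follows fertilisation: an egg that is not fertilised becomes a male with a single chromosome set, and a fertilised egg becomes a female with a paired set. In Nasonia, the female state depends on transformer (Tra), a splicing regulator whose messenger RNA is supplied by the mother and then kept up by its own protein in female embryos. Tra directs the sex-specific splicing of doublesex (Dsx), a transcription factor that drives much of the later sexual differentiation, and of fruitless (Fru), known in Drosophila for its role in male courtship behaviour. Counts per gene do not separate the male and female splice forms.

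The 10 libraries held between 64.9 M and 77.6 M counted reads, with a median of 69.2 M. Levels are given as CPM, the counts brought to one library size with TMM factors, and are the mean ± SD over 5 libraries unless a value per library is given. Log2 fold changes are male minus female, so a positive value is higher in males. The word called is used for genes whose p, adjusted over all genes tested, was below 0.05 in the edgeR fit of all 20 embryo libraries. Of 18 axis-patterning and developmental regulators, 3 had their highest mean in embryos among the GFP stages and body parts, and 6 were higher in embryos than in any adult part. The other 12 were as high or higher in at least 1 adult part, so most of these symbols do not mark the embryo here. Female GFP replicate 3 stood apart in the germ-plasm genes nanos and oskar and the gap gene hunchback (Hb), at 28.9, 74.7 and 46.6 CPM.

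Dsx, the gene targeted in the mothers, did not differ between the labels beyond the spread of the libraries in either sex. In dsx-labelled males it stood at 23.2, 33.8, 25.4, 30.0 and 29.7 CPM, and in GFP males at 29.7 to 32.2 CPM. In dsx-labelled females it stood at 47.2, 58.9, 49.1, 61.8 and 42.6 CPM, and in GFP females at 26.0 to 60.9 CPM. The ranges of both labels overlapped in each sex, although 2 of the 5 dsx-labelled male libraries lay below all GFP males. Exact two-sided permutation tests of dsx-labelled minus GFP gave p = 0.278 in males (mean log2 difference -0.13) and p = 0.151 in females (0.34). For embryos the dsx label is therefore used here only as the name of the mother's treatment. For larvae, pupae and adults the labels name dsx or GFP dsRNA but record no injection of mothers. How and when those later wasps were treated is not given here, so they are not taken as offspring of injected mothers. The gene was lower in males than in females of the dsx-labelled group, (log2 fold change -0.87, SE 0.17, adjusted p = 0.0102). No dsx-labelled male library reached the lowest female library. A two-sided exact permutation test over the 252 divisions of 5 against 5 libraries gave p = 0.00794, which is the smallest p this design allows. In GFP embryos the log2 fold change was -0.45 (SE 0.17, adjusted p = 0.512, exact permutation p = 0.0794), and the interaction of sex and label did not pass the test (log2 difference -0.42, adjusted p = 0.554). At later stages of dsx-labelled wasps Dsx was higher in males in day 7 and day 9 larvae, pupae, heads and abdomens, by 0.21, 0.57, 1.36, 0.52 and 2.05 on the log2 scale, and lower in male thoraces, at -0.42. In GFP wasps it was lower in males in day 7 and day 9 larvae, at -0.25 and -0.21, and in thoraces, at -0.43, and higher in male heads and abdomens, by 0.45 and 1.86. In GFP pupae it did not pass the test (0.15, adjusted p = 0.237). Whether the labels differ at these later stages was not tested.

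Tra was the most strongly sex-biased gene by p. It stood at 23.6, 25.3, 25.1, 30.7 and 39.6 CPM in dsx-labelled males and at 219, 237, 238, 258 and 273 CPM in dsx-labelled females. The lowest female library, at 219 CPM, was far above the highest male library, at 39.6 CPM. The log2 fold change was -3.09 (SE 0.16, adjusted p = 1.23e-09). In GFP embryos it was -2.41 (SE 0.15, adjusted p = 5.68e-08), with 29.0 to 35.9 CPM in males and 135 to 228 CPM in females. The level of Tra therefore separated the sexes as labelled in all 20 embryo libraries. Its annotated span overlaps 8 other genes, and it is not known whether counting used strand. Fru stood at 50.0 to 69.9 CPM in dsx-labelled males and at 65.3, 53.3, 48.7, 42.0 and 19.8 CPM in dsx-labelled females, of which replicate 5 was the lowest. It did not pass the test (log2 fold change 0.45, SE 0.21, adjusted p = 0.201, exact permutation p = 0.0794). The 3 Dsx, Tra and Fru entries were the tested members of the sex-determination list, and 2 of the 3 were called, both higher in females.

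**Figure D1:**
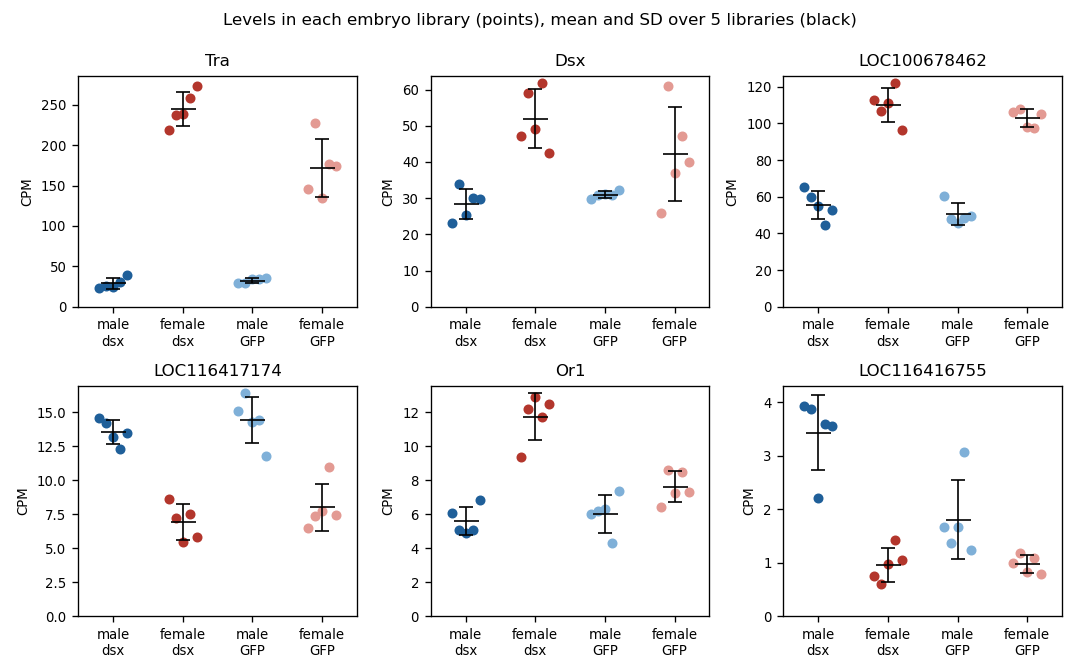
CPM of 6 genes in the 20 embryo libraries, with 1 point per library and the mean ± SD of each group of 5 in black; every axis starts at 0. Tra, LOC100678462, LOC116417174 and LOC116416755 separate the sexes in both labels. Or1 separates only the dsx-labelled sexes, with females at 9.38 to 12.9 CPM against 4.88 to 6.82 CPM in males.

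Across all genes, 612 of 12003 tested differed between male and female dsx-labelled embryos, which is 5.10% of them. Of these, 259 genes (2.16%) were higher in males and 353 (2.94%) were higher in females. Most differences were small: the median log2 fold change was 0.70 among genes higher in males and -0.57 among genes higher in females. At least 2-fold differences were found for 81 of the former and 54 of the latter. The 5 libraries of one sex lay entirely above the 5 of the other for 151 of the 259 and 271 of the 353, beside 894 of all genes tested (7.45%). The number of calls depended on single libraries. It was 202 without male dsx replicate 1, 283 without male dsx replicate 2, 205 without male dsx replicate 3 and 1274 without male dsx replicate 5. It was 249, 218, 364 and 323 without female dsx replicates 2, 3, 4 and 5, and 410 without male dsx replicate 4. It was 226 without the 2 libraries of highest oskar, male dsx replicate 3 and female GFP replicate 3. Called in every one of the 20 fits with 1 library left out were 161 of the 612 genes, 50 higher in males and 111 higher in females.

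**Figure D2:**
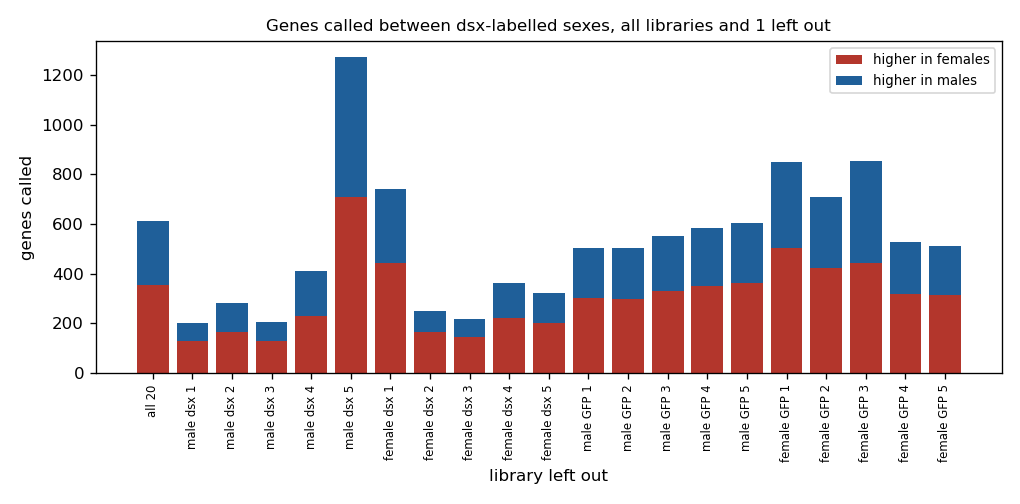
Number of genes called between the dsx-labelled sexes in the fit of all 20 embryo libraries and in the 20 fits with 1 library left out, split into genes higher in females (lower part of each bar) and higher in males (upper part). Counts run from 202 without male dsx replicate 1 to 1274 without male dsx replicate 5.

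In GFP embryos the same contrast gave 5 calls, 0.0417% of the genes tested, 2 of them higher in males (0.0167%) and 3 higher in females (0.0250%). At an unadjusted p below 0.05 there were 892. The 5 GFP calls were 3 without female GFP replicates 1 or 3, 2 without female GFP replicates 2 or 5, 3 without male GFP replicates 1 or 4, and 2 without male GFP replicate 2. All 5 were also called in the dsx-labelled contrast, in the same direction. The interaction of sex and label gave 0 calls (0.00%) with edgeR, with 1161 genes at an unadjusted p below 0.05, 8 calls with DESeq2 and 748 with the leading component within groups as a covariate. The count was also 0 with RLE size factors, without the low-count filter, with a replicate block and in all 20 fits with 1 library left out. The covariate was taken from these same counts after group means were removed. It can lower the spread left in each group but takes no variation out of the group differences. Single genes that differ between the labels in their sex difference were thus called only with DESeq2 and in that fit.

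The genes called between the dsx-labelled sexes leaned the same way in GFP embryos, but by less. Their log2 fold change had the same sign in the GFP contrast for 545 of 612 (89.1%), beside 57.1% of all genes tested. It was smaller in size in GFP embryos for 606 of them, a direction that choosing genes in the dsx-labelled contrast favours. The median GFP log2 fold change was 0.16 for the genes higher in males and -0.18 for those higher in females. The 2 sexes of the GFP group did not overlap for 40 of the 612 (6.54%), beside 1.33% of all genes tested. Relative to the mean of the GFP groups, the genes higher in males had a median log2 level of 0.18 in dsx-labelled males and -0.48 in dsx-labelled females. The genes higher in females had a median of -0.17 in dsx-labelled males and 0.40 in dsx-labelled females. The median of the dsx-labelled females was thus further from the GFP level in both sets. Choosing genes by the dsx-labelled contrast favours values on opposite sides of the GFP level for its sexes. Whether the distances differ between the sexes was not tested.

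**Figure D3:**
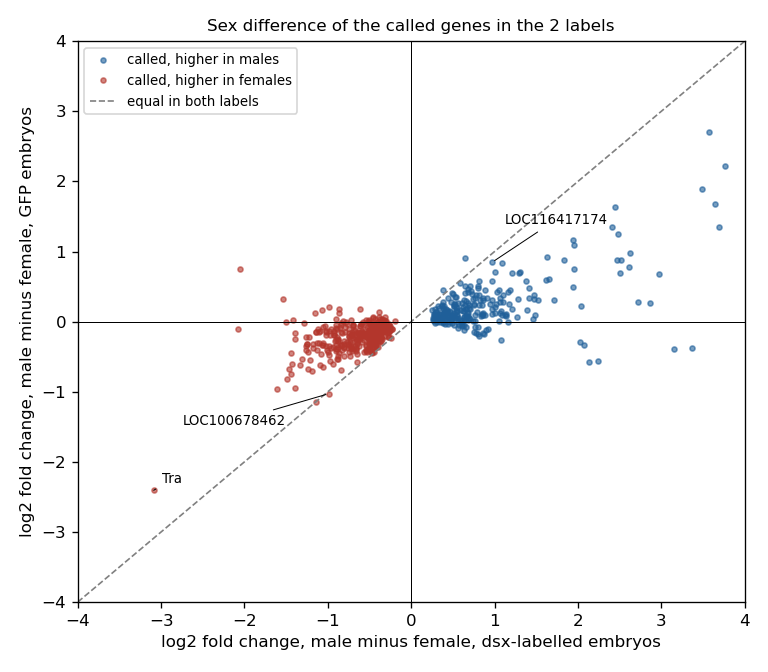
Log2 fold change, male minus female, of each called gene in dsx-labelled embryos (horizontal) and in GFP embryos (vertical), with the dashed line marking equal values. Of the 612 genes, 12 lie outside the plotted range of -4 to 4; most points fall on the same side of 0 in both labels and closer to 0 in GFP embryos.

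Genes called in both labels were Tra, LOC100678462, LOC107980969, LOC116417174 and LOC103317497. The files give no name beyond the identifier for the last 4. LOC100678462, a protein-coding gene, stood at 65.4, 60.1, 55.1, 44.8 and 52.8 CPM in dsx-labelled males and at 96.6 to 122 CPM in dsx-labelled females. Its log2 fold change was -0.98 (SE 0.10, adjusted p = 4.28e-05), and -1.03 (SE 0.10, adjusted p = 2.26e-05) in GFP embryos. Unlike most called genes, it showed about the same difference in both labels, with an interaction of 0.04 (SE 0.14). LOC107980969 was at 1.56 to 2.26 CPM in dsx-labelled males and 3.58 to 5.03 CPM in dsx-labelled females, with log2 fold changes of -1.15 in both labels. LOC116417174 was at 12.3 to 14.6 CPM in dsx-labelled males and at 5.44 to 8.59 CPM in dsx-labelled females. Its log2 fold change was 0.97 (SE 0.14, adjusted p = 0.00292), and 0.84 in GFP embryos. The long non-coding RNA LOC103317497 was higher in males by 0.65 in dsx-labelled and 0.90 in GFP embryos, and missed the threshold in 2 of the 20 fits with 1 library left out. It overlaps 8 other annotated genes and LOC107980969 overlaps 30, so reads of neighbours may be counted in them.

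Among the genes with the lowest p, LOC116416755 was higher in males, at 3.94, 3.87, 2.22, 3.60 and 3.55 CPM against 0.611 to 1.43 CPM in females. The log2 fold change was 1.83 (SE 0.27, adjusted p = 0.00292). The neighbouring and overlapping gene LOC103317402 was at 8.82 to 13.5 CPM in males and 2.01 to 4.51 CPM in females, a log2 fold change of 1.63. LOC116416755 was lower in males in dsx-labelled pupae and abdomens, with log2 fold changes of -2.60 and -1.99, against the embryo's direction. It was not called at the other 4 stages and body parts of dsx-labelled wasps. In GFP wasps it was lower in males in pupae, heads, thoraces and abdomens, at -2.49, -2.37, -3.07 and -2.52, and not called in larvae. LOC100118909 was one of the most abundant of this group, at 248 to 401 CPM in males and 181 to 222 CPM in females, a log2 difference of 0.75 (adjusted p = 0.00292). LOC100116428 and LOC100678052 had log2 fold changes of 0.68 and 1.05. On the female side, LOC116416301 was at 2.38 to 4.32 CPM in males and 7.31 to 10.5 CPM in females (log2 fold change -1.33, SE 0.17, adjusted p = 0.00148). The long non-coding RNA LOC116417586 was at 0.971 to 1.75 CPM in males and 2.51 to 4.84 CPM in females, a log2 difference of -1.40 (adjusted p = 0.00193). All 7 kept their call in each of the 20 fits with 1 library left out.

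The largest differences among genes with at least 5 CPM and no overlap between the sexes were found in genes known here only by identifier. On the male side these had log2 fold changes from 1.41 to 2.04. LOC116417659 was at 12.2, 21.2, 17.5, 13.3 and 11.4 CPM in males and at 3.37, 6.00, 3.93, 4.88 and 1.43 CPM in females, with a difference of 1.94 on the log2 scale (SE 0.32, adjusted p = 0.00536). LOC116417235 had the largest value, 2.04, but lost its call in 5 of the 20 fits. On the female side, after Tra, the log2 fold changes ran from -1.27 to -1.49. LOC100120020 was at 13.5, 16.7, 15.7, 25.2 and 28.3 CPM in males and at 46.0 to 49.6 CPM in all 5 female libraries, a difference of -1.27 on the log2 scale (SE 0.21, adjusted p = 0.00692). Its 5 female libraries were close together, while its male libraries spread from 13.5 to 28.3 CPM. LOC100119710 was at 145 to 549 CPM in males and 685 to 1290 CPM in females, but missed the threshold in 14 of the 20 fits.

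The file gives a gene name for 35 of the called genes, 11 higher in males and 24 higher in females, out of 647 named genes tested; naming all of them was decided after their values were seen. Chemosensory receptors were the largest named group. Of 109 odorant and taste receptors and binding proteins tested, 3 were called higher in males and 6 higher in females, beside 2.16% and 2.94% of all genes. The list's median log2 fold change was -0.34 beside 0.03 for all genes tested. In GFP embryos the list's median was 0.12, in the other direction. Odorant receptor Or1 had the lowest p of the group. It stood at 6.10, 5.06, 4.88, 5.10 and 6.82 CPM in males and at 9.38, 12.2, 12.9, 11.7 and 12.5 CPM in females, and its log2 fold change was -1.07 (SE 0.14, adjusted p = 0.00148). No male library reached a female one, and all 20 fits kept the call. The GFP log2 fold change was -0.34 (adjusted p = 0.578). Or1 is mainly a gene of the adult head, where GFP females reached a mean of 313 CPM.

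Or296 was at 2.24 to 3.57 CPM in males and 4.06 to 7.05 CPM in females (log2 fold change -0.92, SE 0.18, adjusted p = 0.0108). Later dsx-labelled stages differed in direction: it was higher in males in heads and pupae, by 2.06 and 0.54, lower in males in thoraces and abdomens, at -0.93 and -0.48, and not called in larvae. Or260 was at 0.866 to 2.29 CPM in males and 0.564 to 0.662 CPM in females, higher in males by 1.47 on the log2 scale (SE 0.31, adjusted p = 0.0136). Both kept their calls in all 20 fits. The called receptors Or145, Or156, Or159, Or261, Or50 and the taste receptor Gr49 lost theirs in 7 to 15 of the 20 fits. Or145 rests on 1 library: male dsx replicate 1 was at 6.81 CPM and the other 4 male libraries at 0.112 to 0.747 CPM, with females at 0.104 to 0.298 CPM.

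Of the 33 neuronal receptors, channels and peptides listed, 1 was called in each direction, Akhr and Slo, a share near the 5.10% of all genes. Among named genes outside that list, Gnao, the alpha subunit of the Go protein that couples receptors to channels in neurons, was at 95.5, 122, 111, 114 and 121 CPM in males and 135, 160, 186, 151 and 183 CPM in females. The log2 fold change was -0.53 (SE 0.11, adjusted p = 0.0118), kept in all 20 fits; its annotated span covers 156 other genes. Slo, a calcium-activated potassium channel, was higher in females by -0.40 and lost its call in 12 of the 20 fits. Pka-C1, a catalytic subunit of the cAMP-dependent protein kinase, was at 64.5 to 82.6 CPM in males and at 50.0, 45.5, 38.2, 30.4 and 14.7 CPM in females. Its log2 fold change was 1.06 (SE 0.23, adjusted p = 0.0170), beside 0.01 in GFP embryos. The call was kept in all 20 fits but not in a fit of the 10 dsx-labelled libraries alone. Akhr, the receptor of the adipokinetic hormone that mobilises energy stores in insects, was at 12.0, 11.4, 12.0, 5.49 and 5.84 CPM in males and at 3.41 to 5.16 CPM in females, a log2 difference of 1.12 (adjusted p = 0.0438). Its call was lost in 11 of the 20 fits. At later stages of dsx-labelled wasps Akhr was higher in male abdomens, by 2.98, lower in male thoraces, at -0.33, and not called elsewhere.

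Beside the 5.10% of all genes called, 1 of 48 listed cuticle genes and 2 of 31 cytochrome P450 genes were called. Of the 48 cuticle, chitin and apidermin genes tested, only CPR59, a cuticle protein with a chitin-binding domain, was called. It stood at 1200, 2340, 1960, 2540 and 2740 CPM in males and 3040, 4990, 4300, 4410 and 6260 CPM in females (log2 fold change -1.09, SE 0.29, adjusted p = 0.0390), and lost its call in 8 of the 20 fits. Its span overlaps 2 other genes. CYP4G43 and CYP4G44 belong to the cytochrome P450 group that makes cuticular hydrocarbons in insects. CYP4G43 was at 510, 570, 542, 522 and 280 CPM in males and 195 to 389 CPM in females, with a log2 fold change of 0.81 (adjusted p = 0.0309). CYP4G44 moved the other way, with a log2 fold change of -0.80 (adjusted p = 0.0408), at 0.643 to 0.911 CPM in males and 1.08 to 1.69 CPM in females. These 2 were the called members among 31 P450 genes tested, and they lost their calls in 7 and 9 of the 20 fits. The yellow-family gene Y-x1c was higher in males by 1.07 (adjusted p = 0.0272), the 1 call among 15, and lost its call in 3 of the 20 fits.

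The other named genes were of general cell functions. Dctn5, a subunit of the dynactin complex of the dynein motor, was at 30.6 to 37.3 CPM in males and 40.2 to 55.9 CPM in females, a log2 difference of -0.50 (adjusted p = 0.00820). Cyb561d1-like, a cytochrome b561 family member, was at 72.1 to 96.9 CPM in males and 109 to 137 CPM in females, a log2 difference of -0.63 (adjusted p = 0.0118). Snx16, a sorting nexin of endosomes, was higher in females by -0.49 (adjusted p = 0.0122). Fgfr1op, a centrosomal protein, was at 28.9 to 31.4 CPM in males and 22.8 to 26.9 CPM in females, a log2 fold change of 0.34 (adjusted p = 0.00895). These 4 kept their calls in all 20 fits. Calls that were lost in at least 1 of the fits were those of Eif2a, Mir277 and the carboxylesterase CCE-E10, higher in males, and of Drep2, Nfyc, Ostf1, Ovca2, Rffl, TctexA, the glutathione transferase GstD5, the serine protease SP68 and 1 serine transfer RNA, higher in females.

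Among all genes tested 5.10% were called, a share at which short lists often hold no called gene. Several lists held none. These were the 18 patterning regulators (median log2 fold change 0.01), 3 maternal and germ-plasm genes (0.32), 16 cell-cycle and chromosome genes (0.11) and 15 DNA repair genes (-0.01). There was also none among 64 genes of the mitochondrial respiratory chain (-0.05), 8 ribosomal protein genes (-0.13), 3 Osiris genes (-0.12), 3 muscle genes (-0.22), 3 hexamerin genes (-0.02) and 5 innate immunity genes (0.06). The 2 ecdysone genes (-0.13) and 2 heat-shock genes (-0.08) gave none either. The calls in the remaining lists were 1 higher in females among 38 serine proteases, 1 in each direction among 26 glutathione transferases and carboxylesterases, and 1 higher in males, Mir277, among 9 microRNA loci. The hexamerins, storage proteins of the fat body, summed to between 2.67 and 3.88 CPM in each of the 20 libraries.

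The embryo batches differed within every group in genes of late embryonic cuticle formation. The 3 Osiris genes, a family expressed in insect epidermis while cuticle forms, summed to 1310, 58.0, 163, 2.96 and 20.9 CPM in dsx-labelled males and to 293, 179, 3.06, 701 and 545 CPM in dsx-labelled females. GFP males ran from 6.36 to 692 CPM and GFP females from 4.09 to 1040 CPM. The spread within a group was thus larger than the difference between sexes. The leading principal component held 47.9% of the variance over the 20 libraries and had libraries far to both sides in each group. A component was taken from the variation within sex in the 10 GFP libraries alone. These libraries do not enter the dsx-labelled fold changes, but they share the fit's estimate of the spread. The component held 57.1% of their variance. Its sign, which is arbitrary, was set so that the Osiris gene Osi7 had a positive loading. All 3 Osiris genes and 40 of the 48 cuticle, chitin and apidermin genes had positive loadings. Its loading was positive for 69.5% of the genes higher in males, 30.6% of those higher in females and 51.0% of all genes tested. Its scores were 56.5, 22.7, 34.5, -44.9 and -20.6 in dsx-labelled males and -23.9, -18.3, -37.9, 13.1 and 10.8 in dsx-labelled females, so the groups overlapped on it. With the leading component within groups as a covariate, 2932 genes were called, among them all 612, and the GFP and interaction counts were 58 and 748. The covariate was taken from these counts after group means were removed, so that fit cannot show how much of this variation lies in the sex difference. That part was not tested.

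**Figure D4:**
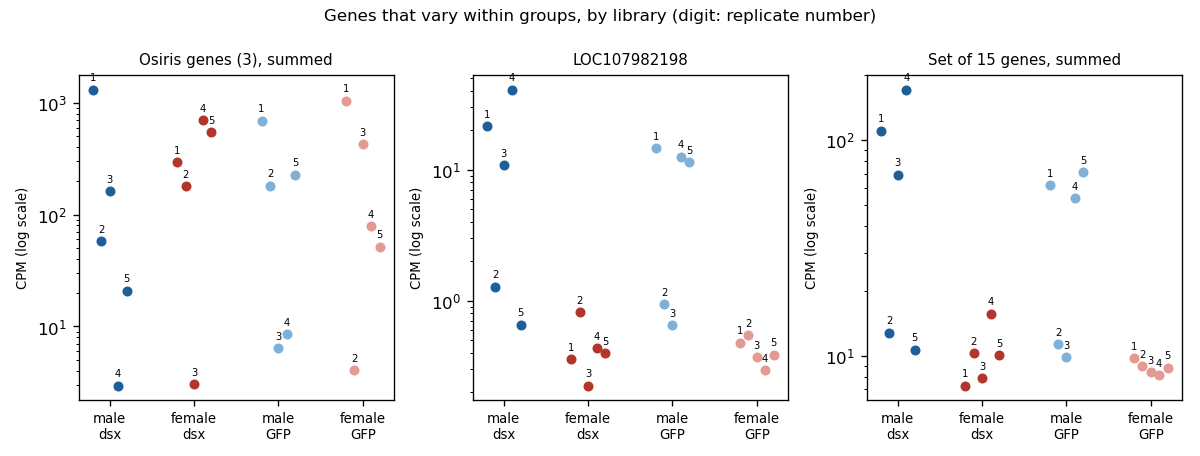
CPM on a log scale in each embryo library, labelled by replicate number, for the summed Osiris genes, for LOC107982198 and for the summed set of 15 genes that vary with it. Osiris genes spread over more than 2 orders of magnitude inside each group; LOC107982198 is above 10 CPM in 3 of 5 libraries of each male group and below 1 CPM in every female library.

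A small set of genes was higher in some male batches than in the others. LOC107982198, a protein-coding gene with no further name in the files, stood at 21.6, 1.28, 10.9, 40.9 and 0.655 CPM in dsx-labelled males and at 0.225 to 0.815 CPM in dsx-labelled females. In GFP males it was at 14.6, 0.944, 0.652, 12.6 and 11.4 CPM, and in GFP females at 0.295 to 0.544 CPM. In 6 of the 10 male libraries it was thus above 10 CPM, and in the other 4 close to the female level. Over the 20 embryo libraries, 14 other genes had a correlation of at least 0.85 with it on the log2 scale, given as a description of libraries that share sex and stage. All 14 had a positive log2 fold change in both labels, and 6 of them were called higher in dsx-labelled males. Choosing them by correlation with a gene high only in male libraries favours both of these outcomes. Among them, LOC107980626 was at 4.53, 0.0747, 3.52, 6.97 and 0.0655 CPM in dsx-labelled males and at most 0.0661 CPM in dsx-labelled females. LOC103316675 was at 6.06, 0, 3.15, 15.6 and 0 CPM in dsx-labelled males and at most 0.0627 CPM in the females. Others were detected in every dsx-labelled female library, such as LOC107982181, at 2.82 to 4.01 CPM. The sum of the 15 genes was 69.2 to 172 CPM in male dsx replicates 1, 3 and 4, against 12.8 and 10.7 CPM in replicates 2 and 5 and 7.28 to 15.7 CPM in females. For 13 of the 15, the mean of the dsx-labelled male embryos lay above that of every later group. These genes were chosen after their values were seen.

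Called genes were then followed into later stages, whose libraries played no part in choosing them. The dsx and GFP labels of these later libraries do not record a treatment of the mothers, unlike those of the embryos. Genes higher in female embryos had their highest later GFP mean in adult heads for 42.2%, beside 16.4% of all genes tested, and in female heads for 29.7%, beside 9.01%. Only 13.6% of them peaked in abdomens, beside 35.3% of all genes. Genes higher in male embryos peaked in abdomens for 41.3%, and in male abdomens for 22.4%, beside 12.6% of all genes. In heads they peaked for 12.7%. In GFP libraries 14.7% of the genes higher in males and 19.8% of those higher in females were highest in embryos over all stages, beside 17.5% of all genes tested.

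**Figure D5:**
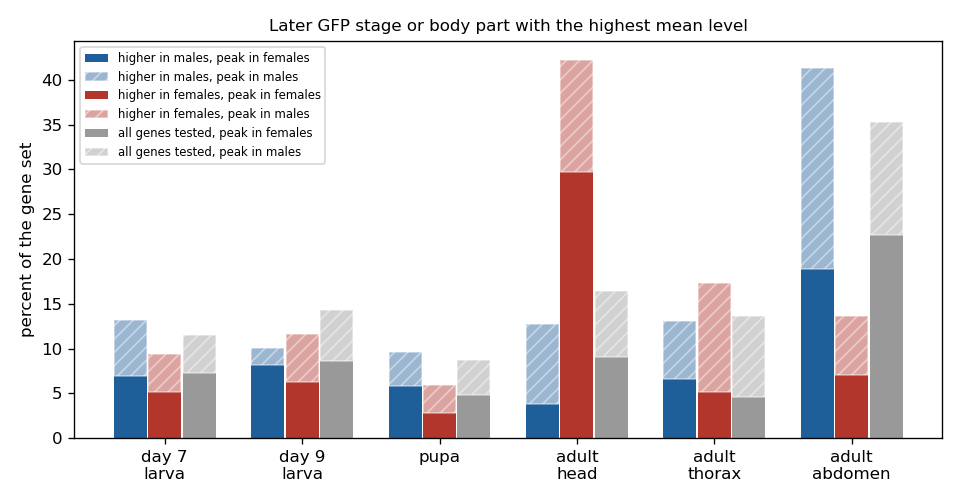
Share of genes with their highest mean level in each later GFP stage or body part, for genes called higher in male embryos, called higher in female embryos and all genes tested; each bar is split into a peak in females (solid) and in males (hatched). The bar of the genes higher in female embryos reaches 42.2% in adult heads, against 16.4% for all genes.

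Later shares of genes called in the embryo's direction lay above, near or below those of all genes tested, depending on the stage and label. The shares of all genes tested both in embryos and at the later stage stand beside them here. Among dsx-labelled wasps, genes higher in male embryos were called higher in males for 8.54% in day 7 larvae, 15.6% in day 9 larvae and 27.0% in pupae. The shares over all genes were 12.7%, 21.4% and 28.5%. In heads, thoraces and abdomens the shares were 16.7%, 17.4% and 44.7%, beside 16.7%, 13.5% and 42.6%. Genes higher in female embryos were called higher in females for 7.49%, 13.8% and 29.4% in day 7 larvae, day 9 larvae and pupae, beside 7.04%, 11.1% and 33.1%. In heads and thoraces the shares were 20.7% and 21.9%, above the 14.0% and 12.7% of all genes, and in abdomens 32.5%, below 44.1%. Against the embryo's direction, genes higher in male embryos were called higher in females for 14.6% in day 7 larvae and 20.2% in thoraces. These lie above the 7.04% and 12.7% of all genes, so the thorax excess is not particular to genes higher in female embryos. In day 9 larvae, pupae, heads and abdomens they were 9.47%, 36.9%, 13.8% and 42.2%, beside 11.1%, 33.1%, 14.0% and 44.1%. Genes higher in female embryos were called higher in males for 17.0% in day 7 larvae and 47.7% in abdomens, beside 12.7% and 42.6%. In day 9 larvae, pupae, heads and thoraces these shares were 22.7%, 29.7%, 14.1% and 13.1%, beside 21.4%, 28.5%, 16.7% and 13.5%. In GFP wasps, genes higher in male embryos were called higher in males for 17.1%, 19.8% and 29.9% in day 7 larvae, day 9 larvae and pupae, beside 18.6%, 25.3% and 30.7% of all genes. In GFP heads, thoraces and abdomens the shares were 18.8%, 14.5% and 45.1%, beside 18.2%, 17.8% and 41.8%. Genes higher in female embryos were called higher in GFP females for 16.7%, 28.4% and 32.0% in larvae of day 7, of day 9 and pupae, beside 16.0%, 23.6% and 32.9%. In GFP heads the share was 21.6%, beside 15.6%, but in thoraces 11.4%, beside 19.5%, and in abdomens 32.7%, beside 45.2%. Against the embryo's direction, genes higher in female embryos were called higher in GFP males for 21.9% in thoraces and 50.3% in abdomens, beside 17.8% and 41.8%. In GFP day 7 larvae, day 9 larvae, pupae and heads these shares were 17.3%, 24.7%, 31.1% and 12.4%, beside 18.6%, 25.3%, 30.7% and 18.2%. Genes higher in male embryos were called higher in GFP females for 18.7%, 23.9% and 36.1% in day 7 larvae, day 9 larvae and pupae, beside 16.0%, 23.6% and 32.9%. In GFP heads, thoraces and abdomens these were 14.6%, 26.4% and 42.6%, beside 15.6%, 19.5% and 45.2%. For genes higher in female embryos, the shares called higher in females leaned the same way in heads of both labels but not in thoraces. The difference between labels was not tested.

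Of the 612 genes, 188 were called in the same direction at none of the 6 later stages and body parts of dsx-labelled wasps, and 8 at all 6. The 188 were 82 of the genes higher in males (31.7%) and 106 of those higher in females (30.0%). Of all genes tested, 31.0% were called higher in males and 29.0% higher in females at none of the 6, so these shares are near the background. Among all 12003 genes, 13 were called higher in males (0.108%) and 14 higher in females (0.117%) at all 6 later stages, so 1 of those 13 and 7 of those 14 were also called in embryos. The 7 higher in females throughout the dsx-labelled libraries were Tra, LOC100678462, LOC100113834, LOC100121964, LOC100122023, LOC100679325 and LOC116417586, and the 1 higher in males was LOC116417174. In GFP wasps LOC100678462 and LOC100122023 were also called higher in females at all 6. LOC100113834 was not called in GFP thoraces (0.05) or abdomens (0.01), nor LOC100121964 in GFP pupae (0.04) or thoraces (-0.19). LOC100679325 was not called in GFP thoraces, LOC116417586 in GFP pupae or LOC116417174 in GFP day 7 larvae (0.05). Tra had log2 fold changes of -2.47 and -3.06 in dsx-labelled larvae of day 7 and day 9 and -2.64 in pupae, while adult heads, thoraces and abdomens had -2.68, -2.74 and -1.92. LOC100678462 had its smallest difference in day 7 larvae, at -0.42, and its largest in heads, at -2.08. LOC116417174 was higher in males by 0.23 in heads and by 2.39 in abdomens. LOC100121964, at 137 to 159 CPM in male and 179 to 216 CPM in female dsx-labelled embryos, had log2 fold changes of -0.45 in dsx-labelled and -0.44 in GFP embryos. LOC100122023 was at 58.9 to 95.4 CPM in males and 101 to 119 CPM in females, a log2 fold change of -0.65 (adjusted p = 0.0115). LOC100113834, with the smallest embryo difference of the 8 at -0.31, lost its embryo call in 7 of the 20 fits.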

How the data were processed

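RNA was extracted with a tissue and insect kit with DNase treatment and sequenced as paired reads on a NovaSeq, per the labels' protocols. The authors deposited 1 table of raw counts, whole numbers of reads per gene, for 140 libraries and 15471 genes; 0 columns were left over. The submitters' processing notes name HISAT2 2.0.5 and HTSeq 0.6.1; genome build, strand setting and handling of shared reads were not given in the sources used here. TMM factors scaled the counts, filterByExpr removed low genes (minimum count 10), and the main test was the quasi-likelihood F test in edgeR 4.0.16 (R 4.3.3). The fit used the 20 embryo libraries with a mean per group, and later stages were fitted on their own 20 libraries. Benjamini-Hochberg adjustment ran over all genes tested, and fold changes use a prior count of 0.125. Adjusted p-values are those of edgeR except where DESeq2 is given. Exact permutation tests were two-sided, on log2(CPM + 0.01), in SciPy 1.17.1. In data simulated for the male against female dsx-labelled comparison over 12003 genes, 18% of 1.5-fold and 60% of 2-fold changes among 200 changed genes were recovered, with 3.7% false calls; genes were simulated independently, so variation they share is not in that figure. Libraries of the same group differed by more than counting noise in all 20 pairs of replicates compared. No molecular identifiers are described.

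The members and gene lists were chosen with earlier results of these data known. The 21 lists were made from gene symbols, since no descriptions were at hand. The named genes are Dsx, Tra and Fru, the 8 largest and 8 smallest log2 fold changes among calls with at least 5 CPM and no overlap, the 5 lowest p in each direction, calls shared with GFP, up to 4 calls per list, and those said to be chosen after their values were seen. Biotype, overlap and order of genes came from RefSeq's table for Nvit_psr_1.1, where 14799 symbols matched. Overlapping genes were common: 69.1% of matched genes tested, 66.8% of those higher in males and 69.6% of those higher in females. Promoter sequence was not analysed here. Alternatives were other size factors, no filter, a replicate block, a covariate, the 10 libraries alone, DESeq2 1.42.0 and each library left out; leaving out the 2 libraries of highest oskar was chosen after seeing the data.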

Additional observations from a re-analysis of the deposited data

Results flagged for a closer look

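In 166 sets of 5 libraries, 16 held a library whose gap to the nearest other exceeded Dixon's critical value of 0.710 of the range; chance alone flags about 1 in 20 such sets. In dsx-labelled males, replicate 5 stood apart for CYP4G43 at 280 CPM (others 510 to 570), Rffl at 21.0 CPM (16.5 to 17.4), LOC100117805 at 8.38 CPM (4.57 to 5.47) and LOC100679652 at 25.8 CPM (14.5 to 17.5). Replicate 2 stood apart for LOC103317402 at 13.5 CPM (8.82 to 9.65), and replicate 3 for LOC116416755 at 2.22 CPM (3.55 to 3.94). Replicate 1 stood apart for Or145 at 6.81 CPM (0.112 to 0.747) and for the summed Osiris genes at 1310 CPM (2.96 to 163).

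In dsx-labelled females, replicate 3 stood apart for Fgfr1op at 26.9 CPM (22.8 to 23.3), Or50 at 1.01 CPM (0.449 to 0.532) and LOC107980626 at 0.0661 CPM (0 to 0.0157). Replicate 5 stood apart for LOC100117805 at 13.5 CPM (8.62 to 9.91) and LOC100679652 at 43.8 CPM (28.5 to 32.8), which are neighbouring genes and stood apart in replicate 5 of the males too. Replicate 2 stood apart for LOC103316675 at 0.0627 CPM (0 to 0.0144) and replicate 4 for Rffl at 24.3 CPM (21.8 to 22.2). In GFP females, replicate 3 stood apart for the summed maternal and germ-plasm genes at 186 CPM (43.3 to 75.5). The values of LOC107980626 and LOC103316675 rest on very few reads.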

How the results depend on the processing

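The count of 612 genes became 626 with RLE size factors (604 shared) and 488 without a filter on low counts (478 shared). It was 305 with only the 10 dsx-labelled libraries (257 shared), 2932 with a covariate for the leading component within groups and 1439 with DESeq2, both of which held all 612. With 1 library left out it ran from 202 to 1274, and without the 2 libraries of highest oskar it was 226. The GFP count of 5 became 2 with only the 10 GFP libraries, 58 with the covariate, 60 with DESeq2, 3 without the 2 libraries of highest oskar and 2 to 6 with 1 library left out. The interaction count of 0 became 748 with the covariate and 8 with DESeq2, and stayed 0 with 1 library left out. The share of called genes with the same sign in GFP embryos was 79.1% with DESeq2. The share of calls that were higher in males was 42.3%, and 33.7 to 48.4% with 1 library left out. Same-numbered male and female dsx-labelled libraries had correlations of -0.48 to -0.05 in their deviations from group means, so the numbers do not pair them. Over all 30 same-numbered pairs of the 4 embryo groups the correlations ran from -0.48 to 0.73. With a replicate block the counts were 841 (559 shared) and, in GFP embryos, 3. Of the 77 named genes, 37 lost their call without the 2 libraries of highest oskar, 32 with only the 10 libraries (2 gave no value), 13 without the filter, 9 with the block and 1 with RLE size factors; none changed sign in these fits. The cause of these moves was not tested. Fewer libraries leave fewer residual degrees of freedom.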

Other observations

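Genes called in embryos lay next to each other in a few places. Among 11628 pairs of tested genes adjacent in the RefSeq order, 29 pairs were called in the same direction and 10 in opposite directions. Of all genes tested, 2.16% were called higher in males and 2.94% higher in females. Whether the pairs exceed the number these shares would give was not tested. The longest run was LOC100679652, LOC100117805, LOC100122774 and LOC100117839, all higher in females, with log2 fold changes of -0.87, -0.79, -0.39 and -0.30. In this run the annotated spans of LOC100117805 and LOC100122774 overlap. LOC100679652 was at 14.5 to 25.8 CPM in dsx-labelled males and 28.5 to 43.8 CPM in dsx-labelled females and kept its call in all 20 fits with 1 library left out; the calls of the other 3 were lost in 6, 7 and 11 fits. LOC100679679, LOC100117173 and LOC103315368 formed a run higher in females, at -1.24, -0.59 and -1.13, but the annotated spans of LOC100679679 and LOC103315368 overlap and LOC100117173 overlaps LOC100679679. LOC100123178, LOC100123159 and LOC116417659 formed a run higher in males, at 0.44, 1.31 and 1.94. LOC100123159 was at 469 to 768 CPM in dsx-labelled males and 140 to 291 CPM in dsx-labelled females.

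Long non-coding RNAs made up 5.95% of the genes higher in females and 2.32% of those higher in males, beside 3.60% of all genes tested. This share was not tested.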
